A study of Mus musculus with 12 samples.

Results

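The proteasome genes were taken as every gene whose symbol starts with Psma, Psmb, Psmc, Psmd, Psme, Psmf or Psmg followed by a digit, read from probe sets with a single gene symbol and represented by the probe set with the highest mean. This gave 50 of the 19935 genes on the array. They comprised 15 core subunits, 21 regulatory subunits and activators, 3 immunoproteasome subunits (Psmb8, Psmb9 and Psmb10), the thymus-type catalytic subunit Psmb11, 7 assembly chaperones and the inhibitor Psmf1. Psmc3ip and Psme3ip1 match the naming pattern but encode no subunit. They are in none of these classes, but all counts and medians over the 50 or 49 members include them. Of the 50, 49 passed the filter on dim genes (mean intensity above 182, the median of all genes) and were tested among 9967 genes. The exception was Psmb11.

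The cells were hematopoietic stem cells (HSCs), sorted from mice as lineage- cells positive for Sca-1, c-kit and CD150 and negative for CD48, in lots of 5000 to 7000 cells and profiled on 12 Affymetrix arrays. The mice were 2 to 3 months old and received, under the skin, 100 µL of corn oil or the same volume of oil with 2 µg of estradiol (E2). There were 4 groups of 3 arrays, each from 3 mice: males under oil, males under E2, females under oil and females under E2. No genetic change is named for any group, and the sources used here do not give the strain or the time between treatment and sorting. RNA of so few cells was amplified before labelling. The comparisons asked how E2 changed the expression of these genes in each sex and in both together, and whether the sexes differed.

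The proteasome is the protease that degrades proteins tagged with ubiquitin. Its barrel-shaped core particle has outer rings of alpha subunits, which gate the entrance, and inner rings of beta subunits, of which Psmb5, Psmb6 and Psmb7 carry the active sites. The regulatory particle on its ends binds and unfolds tagged proteins with a ring of ATPases (the base) and removes ubiquitin at the lid. In immune cells and under interferon, Psmb8, Psmb9 and Psmb10 replace the constitutive catalytic subunits, and peptides made by this form are carried by the transporter of Tap1 and Tap2 onto MHC class I. HSCs are known for low protein synthesis and for a dependence on orderly protein degradation.

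Array medians ran from 143 to 159 and upper quartiles from 368 to 385 (intensity), and log2 values of any pair of arrays correlated at 0.960 to 0.982 across genes. Genes of the sex chromosomes placed all 12 arrays with their sex labels. Of the surface genes of the sort, Kit (c-kit) at 1820 to 2756 and Slamf1 (CD150) at 350 to 686 stayed above the filter. Cd48, which the sort excludes, lay at 62.8 to 116 on all arrays. Ly6a, the gene of Sca-1, was not among the genes read here. Procr, which the stated sort does not use, lay at 550 to 923. Kit (log2 change -0.32, adjusted p = 0.0023 in limma) and Procr (-0.47, adjusted p = 0.000537) fell under E2. Markers of mature blood cells were mixed. Ms4a1, Pax5, Cd3g, Adgre1 and Ly6g lay at 24.4 to 135, below the filter, but other genes of the same lists were brighter: Cd3e at 230 to 291, Cd79b at 341 to 723, Nkg7 at 112 to 725, Cd68 at 327 to 605 and Lyz2 at 1243 to 2149. Of the neutrophil list, Prtn3 lay at 992 to 1689, Mpo at 77.2 to 2775, Elane at 98.0 to 807, S100a8 at 1561 to 6005 and S100a9 at 1350 to 5176.

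Female E2 replicate 1 stood apart for the proteasome genes. It was the highest of the 12 arrays for 28 of 49 members (57.1%), against 17.9% of all genes tested. Among regulatory subunits it was highest for 17 of 21 (81.0%), among core subunits for 9 of 15 and among immunoproteasome subunits for 0 of 3. Counts, class medians and called changes are therefore also given without this array.

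**Figure D1:**
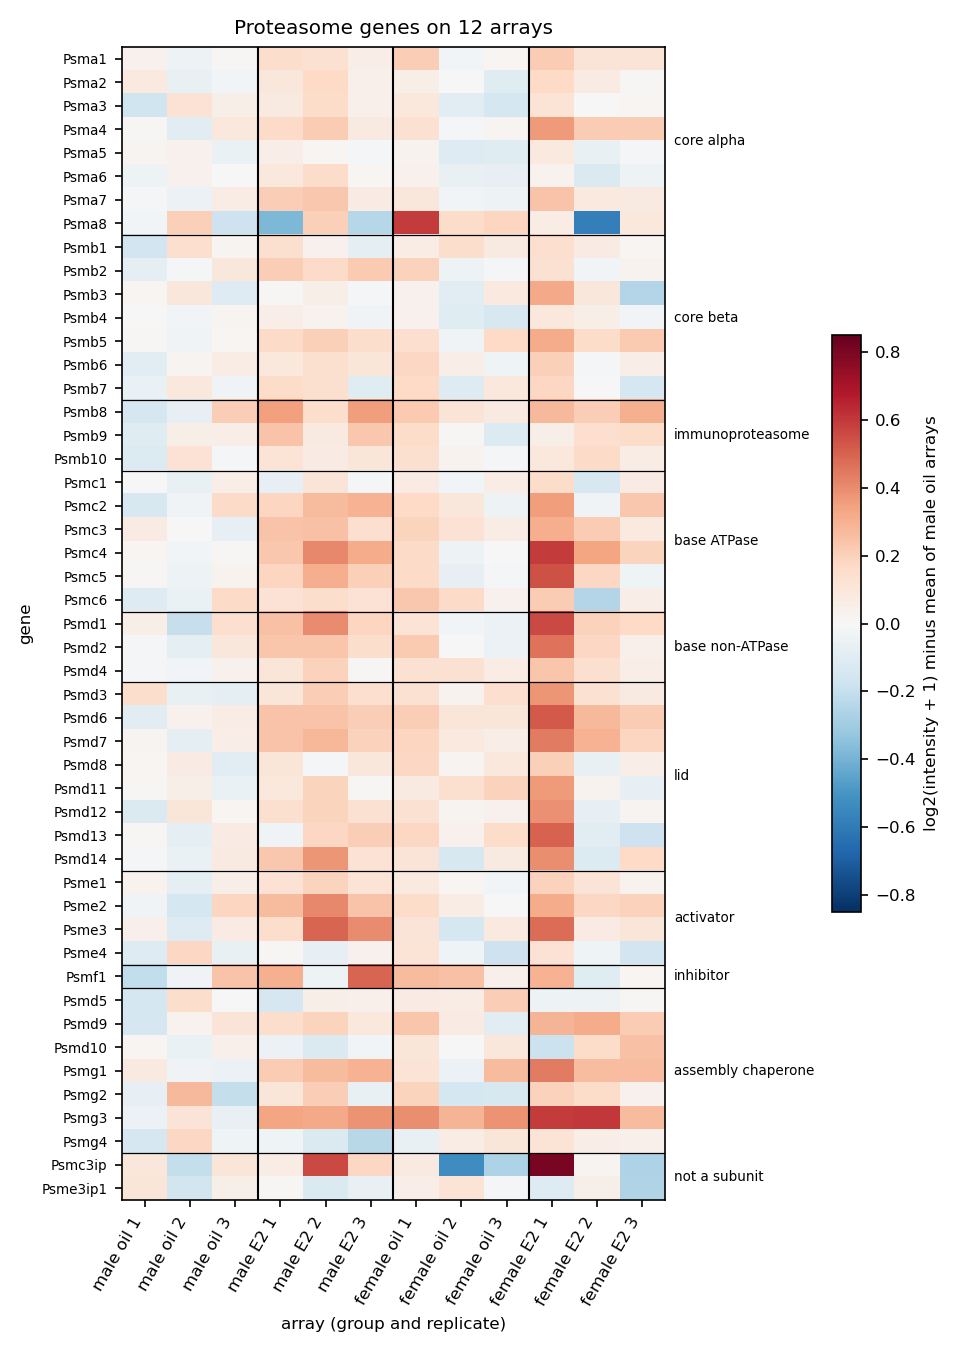
Heat map of the 49 tested proteasome genes (one per line, grouped by class) on the 12 arrays (columns). Colour is log2(intensity + 1) minus the mean of the 3 male oil arrays, red above and blue below it. The column of female E2 replicate 1 is the reddest for regulatory subunits, and the male E2 columns are red for most of them.

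E2 raised 4 proteasome genes when the responses of males and females were averaged: the regulatory subunits Psmc4 and Psmd7 and the assembly chaperones Psmg1 and Psmg3. None of the 49 was called lower. This is 8.16% of the members called higher, against 3.12% of all genes tested, and 0 members called lower, against 5.78% (limma, Benjamini-Hochberg adjusted p under 0.05 over all genes). At an unadjusted p under 0.05, 19 members were higher and 0 lower, against 1047 higher and 1406 lower of all 9967 genes. The averaged change lay above 0 for 43 of 49 members, against 46.7% of all genes, with a median of 0.10 for the members and -0.01 for all genes. Without female E2 replicate 1 it lay above 0 for 36 of 49, with medians of 0.08 and -0.02. Changes are differences of log2(intensity + 1), which understate folds at low intensity. In RNA of whole sorted lots, a different mix of cells and a different amount of RNA per cell cannot be told apart.

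The count of 4 rests on small margins. It was 1 without female E2 replicate 1, and also without male oil replicate 1 or 2 or any of the 3 male E2 arrays. Without female oil replicate 1 or 3 the count was 2, without female oil replicate 2 it was 0, and without female E2 replicate 3 it was 7. Centring the arrays on their medians left 1, a filter at the 25th percentile left 1 and no filter left 1. In each of these fits with 1 call, that gene was Psmc4. Moderation with trend and robust estimation gave 8, which added Psma4, Psmd1, Psmd6, Psme2 and Psme3 and lost Psmg3.

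For the 15 core subunits the averaged change lay above 0 for 14, with a median of 0.06, and 0 were called (3 at an unadjusted p under 0.05). The 21 regulatory subunits had a median of 0.14, with 20 above 0, 2 called and 11 at an unadjusted p under 0.05. All 3 immunoproteasome subunits lay above 0 with a median of 0.14, and 0 were called (2 at an unadjusted p under 0.05). Of all 9967 genes tested, 46.7% lay above 0 and 3.12% were called higher. An unadjusted p under 0.05 (limma) was found for 2453 of them, 1047 higher and 1406 lower. Differences between the classes were not tested. Without female E2 replicate 1, changes above 0 were found for 11 of 15 core, 15 of 21 regulatory (1 called) and 3 of 3 immunoproteasome subunits, with medians of 0.05, 0.12 and 0.16. With each array left out in turn, the core median ranged from 0.05 to 0.10 (the highest without female E2 replicate 3), the regulatory median from 0.12 to 0.17 and the immunoproteasome median from 0.11 to 0.18.

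**Figure D2:**
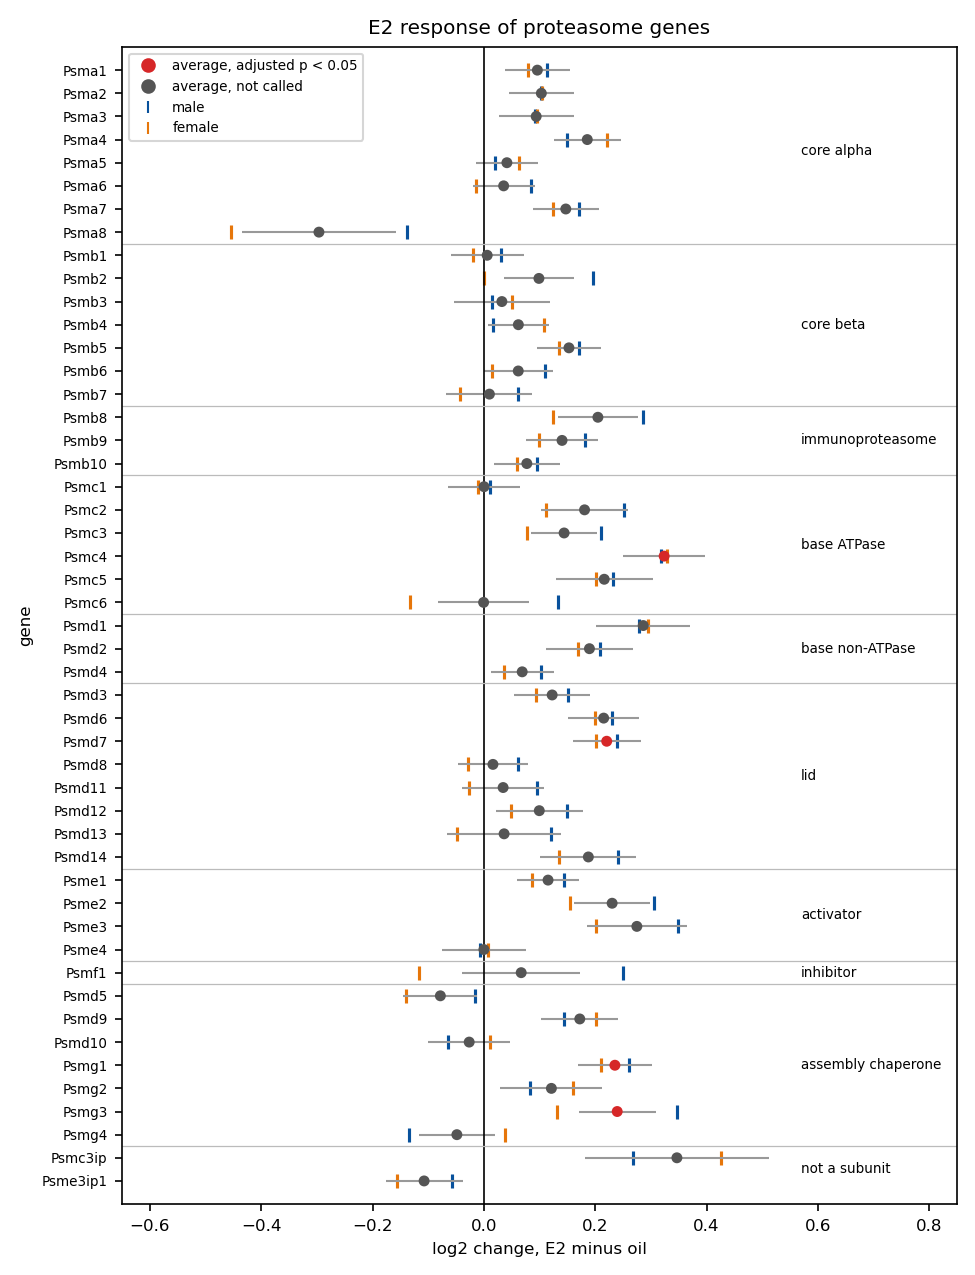
Log2 change under E2 (E2 minus oil, horizontal axis) of the 49 tested genes, grouped by class. Dots with bars give the change averaged over the sexes and its standard error from limma, ticks give males and females, and red dots mark the 4 genes with an adjusted p under 0.05. The median lies at 0.14 for the regulatory and 0.06 for the core subunits, their ranges overlap, and the difference was not tested.

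Among the alpha subunits, which form the gated outer rings, Psma4 had the highest averaged change. It read 1344, 1248 and 1420 in male oil arrays and 1495, 1548 and 1405 in male E2 arrays. In females it read 1459, 1318 and 1354 under oil and 1717, 1553 and 1549 under E2. The female E2 arrays all lay above the female oil arrays, while the male groups overlapped. Its averaged change of 0.19 had an adjusted p of 0.0724 (limma). Psma1, Psma2, Psma3, Psma5, Psma6 and Psma7 had averaged changes of 0.04 to 0.15, of which Psma7 was the highest (0.15, adjusted p = 0.143).

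Psma8, the alpha subunit of the testis-type proteasome, was dim. It read 248, 291 and 224 in males under oil and 194, 291 and 214 under E2. In females the oil arrays read 383, 281 and 286 and the E2 arrays 264, 168 and 269. All female E2 arrays lay below all female oil arrays, and the male groups overlapped. The averaged change was -0.30 ± 0.14 (SE), the lowest of all members, with an adjusted p of 0.205 (limma). It was -0.19 without female E2 replicate 2, the dimmest array.

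Among the beta subunits, none of the constitutive catalytic ones was called. Psmb5, which has the chymotrypsin-like site, read 1674, 1631 and 1681 in males under oil and 1858, 1914 and 1840 under E2, so that the male groups did not overlap. Female oil arrays read 1837, 1631 and 1867 and female E2 arrays 2064, 1855 and 1936, with 1 E2 array between the oil values. The averaged change of 0.15 had an adjusted p of 0.112 (limma). Psmb6, which has the caspase-like site, had means of 1700 ± 91.7 under oil and 1833 ± 33.1 under E2 in males (SD, n = 3 throughout) and of 1780 ± 132 and 1797 ± 141 in females, an averaged change of 0.06 (adjusted p = 0.590). Its male groups were apart and its female groups overlapped. Psmb7, which has the trypsin-like site, had means of 1178 ± 65.6 and 1232 ± 121 in males and of 1222 ± 118 and 1188 ± 133 in females. Its averaged change of 0.01 (adjusted p = 0.956) turned to -0.01 under quantile normalization. The noncatalytic Psmb1, Psmb2, Psmb3 and Psmb4 had averaged changes of 0.01 to 0.10.

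**Figure D3:**
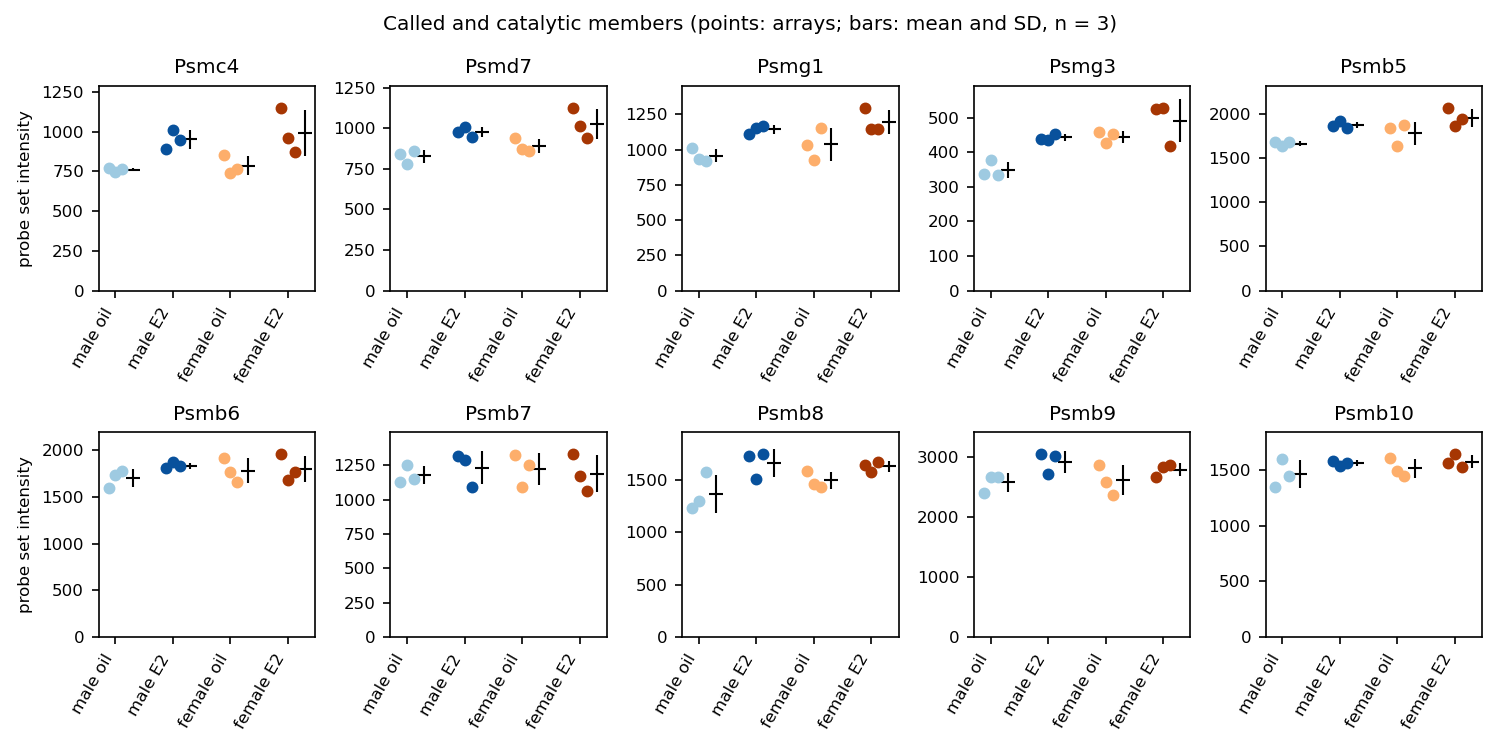
Probe set intensity (linear, from 0) of the 4 called genes and the 6 catalytic subunits on each array, in 10 panels. Points are arrays and the bars beside them are mean and SD of 3 arrays; the male E2 points of Psmc4, Psmd7, Psmg1, Psmg3, Psmb5, Psmb6 and Psmb9 lie above every male oil point, while Psmb7 and Psmb10 overlap in both sexes.

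The 3 immunoproteasome subunits had changes above 0 in both sexes, and none was called. Psmb8, which takes the place of Psmb5, read 1235, 1298 and 1575 in males under oil and 1732, 1512 and 1745 under E2. In females it read 1589, 1466 and 1438 under oil and 1646, 1573 and 1676 under E2. In both sexes 1 oil array lay among the E2 arrays. Its averaged change was 0.20 ± 0.07 (SE) with an adjusted p of 0.0915 (limma); without male oil replicate 3, the highest male oil array, it was 0.26 with an adjusted p of 0.0353.

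Psmb9, which takes the place of Psmb6, read 2393, 2664 and 2670 in males under oil and 3041, 2713 and 3009 under E2. Female oil arrays read 2872, 2590 and 2369 and female E2 arrays 2664, 2835 and 2869. The male groups did not overlap, while female oil replicate 1 was above every female E2 array. The averaged change was 0.14 ± 0.07 (SE), with an adjusted p of 0.202 (limma). Psmb10, which takes the place of Psmb7, had means of 1465 ± 123 under oil and 1562 ± 23.2 under E2 in males, and of 1513 ± 82.5 and 1576 ± 57.4 in females. Its groups overlapped in both sexes, and the averaged change of 0.08 had an adjusted p of 0.460.

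Set beside the subunits they replace, the immunoproteasome subunits changed as follows. In males the changes were 0.29 for Psmb8 and 0.17 for Psmb5, 0.18 for Psmb9 and 0.11 for Psmb6, and 0.10 for Psmb10 and 0.06 for Psmb7. In females they were 0.12 for Psmb8 and 0.14 for Psmb5, 0.10 for Psmb9 and 0.01 for Psmb6, and 0.06 for Psmb10 and -0.04 for Psmb7. In males each immunoproteasome subunit had the larger change of its pair, and in females 2 of the 3 did. Within arrays, Psmb8 minus Psmb5 (log2, mean ± SD) was -0.29 ± 0.18 under oil and -0.17 ± 0.15 under E2 in males. In females it was -0.25 ± 0.12 and -0.26 ± 0.06. Psmb9 minus Psmb6 was 0.60 ± 0.02 and 0.67 ± 0.12 in males, and 0.55 ± 0.03 and 0.64 ± 0.16 in females. Psmb10 minus Psmb7 was 0.31 ± 0.05 and 0.35 ± 0.15 in males, and 0.31 ± 0.13 and 0.41 ± 0.16 in females. The differences within pairs were not tested.

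Psmb11, the catalytic subunit of the thymus, lay at 74.9 to 126 on all 12 arrays and was not tested. Female E2 arrays read 106, 102 and 126 and female oil arrays 98.2, 87.5 and 90.3, while the male groups overlapped. At this intensity, below the filter, the values may be close to the background of the array, for which no level was used here.

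Upstream sequence was read for the subunits on which these comparisons turn. The lines give the 120 bases before the transcript start from RefSeq (build GRCm38.p6), on the strand of the gene: Psmc4 at chr7:28050093-28050212 (minus strand), the member with the smallest p; Psmb5 at chr14:54617996-54618115 (minus) and Psmb6 at chr11:70525237-70525356 (plus), constitutive catalytic subunits; Psmb8 at chr17:34198075-34198194 (plus) and Psmb9 at chr17:34187331-34187450 (minus), their inducible counterparts.
Psmc4: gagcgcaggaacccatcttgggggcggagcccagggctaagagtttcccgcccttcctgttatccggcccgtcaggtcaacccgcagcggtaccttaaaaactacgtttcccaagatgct
Psmb5: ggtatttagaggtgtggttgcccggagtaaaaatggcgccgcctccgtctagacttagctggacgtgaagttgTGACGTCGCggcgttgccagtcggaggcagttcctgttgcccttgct
Psmb6: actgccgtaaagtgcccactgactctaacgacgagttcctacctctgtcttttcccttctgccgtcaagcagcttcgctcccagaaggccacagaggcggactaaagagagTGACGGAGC
Psmb8: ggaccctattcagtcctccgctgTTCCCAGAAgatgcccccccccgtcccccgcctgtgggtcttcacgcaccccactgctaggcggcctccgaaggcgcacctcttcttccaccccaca
Psmb9: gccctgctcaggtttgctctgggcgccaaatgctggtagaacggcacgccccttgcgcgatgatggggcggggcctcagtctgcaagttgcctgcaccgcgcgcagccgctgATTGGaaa
Capitals mark, in Psmb5 and Psmb6, a match to TGACNNNGC, the core of the antioxidant response element bound by Nfe2l1 and Nfe2l2, regulators of proteasome genes. In Psmb8 they mark a match to TTCNNNGAA, the site class bound by STAT factors after interferon, and in Psmb9 a CCAAT box on the reverse strand. None of the motifs searched was in the Psmc4 stretch.

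Across the 42 members found in the promoter table (46 promoters of 300 bases, both strands searched), TGACNNNGC was in 13% of member promoters and 12.4% of all 32851 promoters. CCAAT was in 34.8% and 37.4%, TTCNNNGAA in 6.52% and 8.3%, and GAAANNGAA, the core of the interferon-stimulated response element, in 15.2% and 8.56%. The 7 member promoters with GAAANNGAA belonged to Psmb3, Psmb4, Psmc2, Psmd4, Psmd9, Psme1 and Psmg4. Those of Psmb8 and Psmb9 did not hold it. The differences in shares were not tested. The 6 members with TGACNNNGC were Psmb5, Psmb6, Psmc6, Psmd12, Psmd9 and Psme4, and none of them was called. Since 4 of the 49 tested members were called at all, this cannot tell whether members with the motif differ. A match is a description of letters and not a bound site.

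In the RefSeq gene order (build GRCm38.p6), Psmb9, Tap1, Psmb8 and Tap2 follow one another between MHC class II genes. Psmb5 and Psmb11 are neighbours, and Psme1 and Psme2 have 1 gene, Emc9, between them. Tap2, a chain of the peptide transporter, rose under E2. It read 549, 526 and 518 in males under oil and 987, 726 and 810 under E2. In females the oil arrays read 584, 668 and 572 and the E2 arrays 564, 996 and 1047. All male E2 arrays lay above the oil arrays, but female E2 replicate 1 lay below every female oil array. The averaged change of Tap2 was 0.56 ± 0.13 (SE) with an adjusted p of 0.0207 (limma), and 0.70 (adjusted p = 0.000175) without female E2 replicate 1. Its adjusted p passed 0.05 without male oil replicate 2 (0.0506), male E2 replicate 1 (0.0529) or female oil replicate 3 (0.0537).

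Tap1, the other chain, had an averaged change of 0.22 (adjusted p = 0.116), and the interferon-regulated factor Irf1 had one of -0.22 (adjusted p = 0.0538). Of the 10 genes listed for MHC class I processing, 7 were on the table and tested, with a median of 0.01. Of these, 1 was called higher (Tap2) and 0 lower, against 3.12% and 5.78% of all genes tested.

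In the base of the regulatory particle, Psmc4 rose. This ATPase subunit read 771, 748 and 765 in males under oil and 893, 1012 and 947 under E2. In females it read 854, 740 and 763 under oil and 1149, 959 and 869 under E2. Every E2 array lay above every oil array of its sex, with female E2 replicate 1 highest. The averaged change was 0.32 ± 0.07 (SE), with an adjusted p of 0.0157 in limma. Without female E2 replicate 1 it was 0.27 (adjusted p = 0.0177), and without female oil replicate 2 the adjusted p was 0.0509.

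The other ATPases varied. Psmc5, Psmc2 and Psmc3 had averaged changes of 0.22, 0.18 and 0.14, with adjusted p of 0.141, 0.169 and 0.151 (limma), while Psmc1 and Psmc6 were both at 0.00. With female E2 replicate 1 left out, Psmc5 was at 0.14, Psmc1 at -0.03 and Psmc6 at -0.05. The ATPases form a common ring, and across the 6 of them the changes ranged from 0.00 to 0.32.

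Psmd1, the scaffold of the base, read 951, 801 and 1012 in males under oil and 1091, 1211 and 1042 under E2. Female oil arrays read 996, 901 and 886 and female E2 arrays 1354, 1050 and 1032. The groups did not overlap in either sex. Its averaged change of 0.29 missed the threshold (adjusted p = 0.0524, limma) and passed it without female E2 replicate 2 (0.0468), without female E2 replicate 3 (0.0329), under quantile normalization (0.0417) and with an offset of 16 (0.0496). The second large scaffold, Psmd2, had a change of 0.19 (adjusted p = 0.151), and the ubiquitin receptor Psmd4 one of 0.07 (adjusted p = 0.50).

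In the lid, Psmd7 rose. It is the partner of the deubiquitinase Psmd14 and read 841, 780 and 861 in males under oil and 977, 1005 and 948 under E2. In females the oil arrays read 938, 874 and 858, and the E2 arrays 1126, 1013 and 939. No E2 array lay below an oil array of its sex, but the lowest female E2 value and the highest female oil value nearly met. Over both sexes the change was 0.22 ± 0.06 (SE), with an adjusted p of 0.0403 in limma. It was 0.19 (adjusted p = 0.0577) without female E2 replicate 1. The call was lost under median centring (0.0863), without a filter, and in 10 of the 12 fits that leave out 1 array.

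The lid subunit Psmd6 had groups apart in both sexes as well, with means of 899 ± 52.7 and 1054 ± 14.9 in males and 989 ± 44.1 and 1140 ± 129 in females. Its change of 0.22 had an adjusted p of 0.0538 (limma), or 0.0357 under quantile normalization and 0.0293 without female E2 replicate 3. Psmd14 had a change of 0.19 (adjusted p = 0.199). The remaining lid subunits Psmd3, Psmd8, Psmd11, Psmd12 and Psmd13 had changes of 0.02 to 0.12. All 8 lid subunits had averaged changes above 0 over the 12 arrays, with 1 called. Without female E2 replicate 1, Psmd8 (-0.02), Psmd11 (-0.03) and Psmd13 (-0.07) had changes below 0.

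Of the 4 activators, which open the core without ATP, none was called. Psme2, a subunit of the interferon-inducible activator, read 1856, 1711 and 2158 in males under oil and 2290, 2522 and 2242 under E2. In females it read 2118, 1987 and 1892 under oil and 2362, 2141 and 2173 under E2. The groups did not overlap in either sex, and the averaged change of 0.23 had an adjusted p of 0.0539 (limma), or 0.0266 without male oil replicate 3. Its partner Psme1 had a change of 0.12 (adjusted p = 0.222).

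Psme3, the nuclear activator, read 1289, 1157 and 1310 in males under oil and 1385, 1763 and 1654 under E2. Female oil arrays read 1351, 1126 and 1324 and female E2 arrays 1739, 1310 and 1342. The male groups were apart, while in females replicate 1 alone lay above all oil arrays. The averaged change was 0.27, with an adjusted p of 0.0733 (limma). Psme4, the activator linked to histone degradation, was at 0.00.

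The inhibitor Psmf1 had an averaged change of 0.07 (adjusted p = 0.754), from 0.25 in males and -0.12 in females. Its groups overlapped in both sexes.

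Among the assembly chaperones, Psmg1 and Psmg3 rose, each in a different pair that helps to build the alpha ring. Psmg1 read 1008, 936 and 923 in males under oil and 1111, 1152 and 1170 under E2. Female oil arrays read 1034, 923 and 1152 and female E2 arrays 1296, 1146 and 1147. The male groups were apart, and in females 1 oil array lay just above the lower 2 E2 arrays. The averaged change was 0.24 ± 0.07 (SE), with an adjusted p of 0.0430 in limma, or 0.21 (adjusted p = 0.0647) without female E2 replicate 1. Its partner Psmg2 had a change of 0.12 (adjusted p = 0.455).

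Psmg3 read 336, 376 and 333 in males under oil and 439, 436 and 454 under E2. In females it read 458, 426 and 453 under oil and 526, 528 and 419 under E2. The male groups were apart and the female groups overlapped. Averaged over the sexes, the change was 0.24 ± 0.07 (SE), with an adjusted p of 0.0475 in limma, and the sexes alone gave 0.35 in males (adjusted p = 0.112) and 0.13 in females (adjusted p = 0.520). The average was 0.21 (adjusted p = 0.0728) without female E2 replicate 1. Psmg1 and Psmg3 both lost their calls under median centring and without a filter. Leaving out each array in turn kept the call of Psmg1 in 3 of 12 fits and that of Psmg3 in 1 of 12.

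Psmg4, the partner of Psmg3, had an averaged change of -0.05 (adjusted p = 0.716). The base chaperones Psmd5, Psmd9 and Psmd10 had changes of -0.08, 0.17 and -0.03, with adjusted p of 0.515, 0.139 and 0.870 (limma). All female E2 arrays of Psmd5 (459, 458 and 476) lay below the female oil arrays (496, 495 and 546), and the male groups overlapped.

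Of the genes that match the naming pattern alone, Psmc3ip, a factor of meiotic recombination, had the highest averaged change of the 49, at 0.35 ± 0.16 (SE), with an adjusted p of 0.214 (limma). It read 564 in female E2 replicate 1 and 328 and 268 in the other female E2 arrays, against 340, 223 and 269 under oil. Male arrays read 345, 280 and 347 under oil and 337, 477 and 365 under E2. Both sexes overlapped. Leaving out female E2 replicate 1 gave a change of 0.19, below that of Psmc4 (0.27) and Psmd1 (0.22). Psme3ip1, a binding partner of Psme3, had a change of -0.11 (adjusted p = 0.372).

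Genes around the proteasome were read from fixed lists. Pomp, the chaperone that completes the core, had a change of 0.08 (adjusted p = 0.551), and the 19S-bound deubiquitinase Uchl5 one of 0.27 (adjusted p = 0.0600). Of 9 such assembly and 19S-bound genes, 6 were tested and 0 called, with a median of 0.07. Of 11 ubiquitin and shuttle genes, 5 were tested and 0 called, with a median of 0.04. Nfe2l1, the factor that raises proteasome genes when the proteasome is impaired, had a change of -0.05 (adjusted p = 0.716). Of 5 regulators of proteasome genes, 4 were tested and 0 called, with a median of -0.06. None of these 15 genes had an adjusted p under 0.05 in limma.

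In males alone, 0 of the 49 were called, against 1.43% of all genes called in either direction (limma). At an unadjusted p under 0.05, 12 were higher and 0 lower, against 746 higher and 724 lower of all genes. The change lay above 0 for 43 of 49, against 4982 of all 9967 genes, with a median of 0.14, or 0.09 for core, 0.21 for regulatory and 0.18 for immunoproteasome subunits, while all genes had 0.00. All 3 male E2 arrays lay above all 3 oil arrays for 21 members (42.9%), against 13.6% of all genes tested, and below them for 0, against 13%. Of these, 13 were among the 21 regulatory subunits, 5 among the 15 core subunits and 1, Psmb9, among the 3 immunoproteasome subunits. With 3 arrays against 3, an exact permutation test of a single gene cannot give a p under 0.1.

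In females alone, 0 of the 49 were called, against 3.56% of all genes in either direction (limma). At an unadjusted p under 0.05, 6 were higher and 1 was lower, against 610 higher and 1243 lower of all genes. The change lay above 0 for 37 of 49, against 44.2% of all genes, with a median of 0.09, against -0.02 for all genes. E2 arrays all lay above oil arrays for 6 members (12.2%), against 6.95% of all genes, and below them for 2, Psma8 and Psmd5, against 13.1%. Without female E2 replicate 1 the female median was 0.04, with 31 of 49 above 0, and that of the regulatory subunits went from 0.09 to 0.02. Leaving out female E2 replicate 3 gave 1 call, Psmc4 (0.42, adjusted p = 0.0395). In both sexes E2 arrays were all above oil arrays for 5 members (10.2%), Psmc4, Psmd1, Psmd6, Psmd7 and Psme2, against 2.32% of all genes, and all below for 0, against 4.88%. All 5 are regulatory.

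The test of the difference of responses, female minus male, called 0 of the 49, against 0.01% of all genes (limma). At an unadjusted p under 0.05 there were 0 of the 49, against 535 of all 9967 genes. The median difference was -0.05 for the members and -0.04 for all genes. The responses to E2 were thus not shown to differ between the sexes for any member.

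Females and males under oil differed at 0 members, against 0.0401% of all genes (limma). At an unadjusted p under 0.05 there was 1 member of 49, against 497 of all 9967 genes. The member was Psmg3, with 446 ± 17.3 in females and 349 ± 24.1 in males, a difference of 0.36 with an adjusted p of 0.647. Under oil, 41 of 49 members had the higher mean in females, against 49.2% of all genes, with a median difference of 0.06. Averaged over the members, the log2 difference from the male oil mean was 0.15, 0.01 and 0.03 on the female oil arrays. On the male oil arrays it was -0.03, 0.00 and 0.03, so that female oil replicate 1 alone lay above all of them. Under E2, 0 of 49 were called, against 0.01% of all genes (limma). An unadjusted p under 0.05 was found for 1 member (Psmg4), against 901 of all 9967 genes. Of the 49, 23 had the higher mean in females under E2, against 38.7% of all genes.

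The level of each class on each array was taken as the mean over its genes of the log2 difference from the male oil mean. For the regulatory subunits it was 0.15, 0.24 and 0.16 on the male E2 arrays and 0.37, 0.07 and 0.07 on the female E2 arrays, against 0.15, 0.03 and 0.04 on the female oil arrays and -0.01, -0.03 and 0.04 on the male oil arrays. The male E2 arrays were all above male oil, while among females replicate 1 of each treatment was the highest of its group. For the core subunits the E2 values were 0.08, 0.14 and 0.02 in males and 0.18, 0.00 and 0.02 in females. For the immunoproteasome subunits they were 0.23, 0.10 and 0.23 in males and 0.14, 0.17 and 0.17 in females, so that female E2 replicate 1 did not stand out there.

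**Figure D4:**
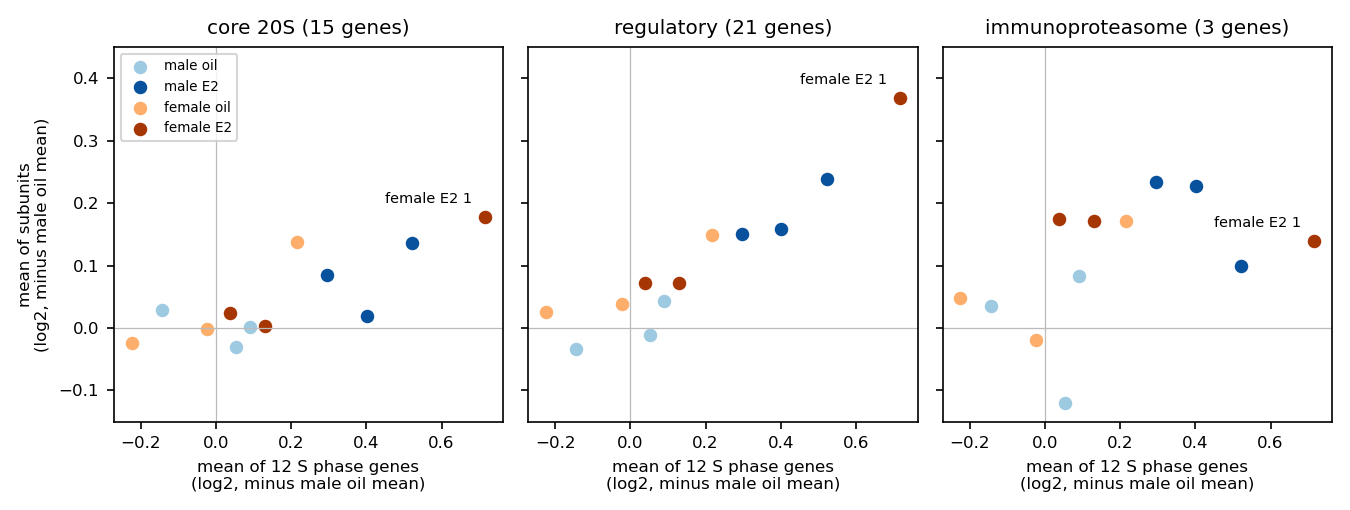
Mean level of core, regulatory and immunoproteasome subunits (vertical axis) against the mean of 12 S phase genes (horizontal axis) on each array, both as log2 difference from the male oil mean. Each point is an array coloured by group; female E2 replicate 1 lies at the right of each panel, at 0.72 for the S phase genes, and is the highest point for core and regulatory subunits but not for immunoproteasome subunits.

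Genes of DNA replication were read on the same arrays. The mean of 12 S phase genes, such as Mcm2, Pcna and Rrm2, was 0.72 on female E2 replicate 1 and 0.13 and 0.04 on the other female E2 arrays, and 0.30, 0.52 and 0.40 on the male E2 arrays. Under oil it was 0.22, -0.22 and -0.02 in females and 0.05, -0.14 and 0.09 in males. Of the 12, 2 were called higher (Mcm5 and Cdc6) and 0 lower, against 3.12% and 5.78% of all genes tested. The summed intensity of the 12 was 9993 to 11511 in male oil and 13115 to 15198 in male E2 arrays. It was 9435 to 12321 in female oil and 10943 to 17105 in female E2 arrays. In each of the 4 groups the array with the highest S phase level was also the highest for the regulatory subunits. For the core subunits this held in 3 groups, and in male oil replicate 2, the lowest for S phase genes, was the highest (0.03). For the immunoproteasome subunits it held under oil, while under E2 the array with the highest S phase level of each sex was the lowest of its group (0.10 in males and 0.14 in females). The part of cell cycle state in the change of the proteasome genes was not tested.

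Genes listed as markers of other cell types also moved under E2. For scale, 5.78% of all genes tested were called lower and 3.12% higher, and several of these lists have only 1 or 2 tested genes. Of 4 dendritic genes tested, 3 were lower (Cd74, H2-Aa and Flt3). The summed intensity of the list was 1742 to 2052 in male oil and 1224 to 1492 in male E2 arrays. It was 1592 to 2097 in female oil and 989 to 1534 in female E2 arrays. Of 4 megakaryocyte genes tested, 3 were lower (Pf4, Itga2b and Plek) and 1 was higher (Gp9). The sums were 2358 to 2651, 1844 to 2069, 2474 to 2692 and 1373 to 1956 in the same order. Of 2 T and NK genes tested, 1 (Nkg7) was lower, and of 1 B cell gene tested, Cd79b, 1 was lower. Of 5 neutrophil genes tested, 1 (Prtn3) was lower, and of 2 monocyte and macrophage genes 0 were called. The 1 erythroid gene tested, Tfrc, was higher. Whether the sorted cells themselves express these genes was not tested. The part of other cell types in the changes of the immunoproteasome subunits, which mature immune cells express, was not tested either.

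Genes with the most similar pattern across arrays were found for the immunoproteasome subunits by Pearson correlation of log2 values over 12 arrays after removing group means, among 9966 other genes. For Psmb8 these were Txndc11 (0.96), Vps4a (0.93) and Cd79b (0.89). For Psmb9 they were Dipk1a (0.96), Sepsecs (0.95) and Ccnq (0.91), and for Psmb10 Fbxo33 (0.94), Map2k5 (0.93) and Sf3b6 (0.93). Among themselves, Psmb8 and Psmb9 correlated at 0.68, Psmb9 and Psmb10 at 0.71 and Psmb8 and Psmb10 at 0.23. These values describe residual variation on shared arrays, and the top genes are picked from many.

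Within groups, the median SD of log2 values was 0.11 for the 49 members and 0.14 for all genes tested. In the female E2 group it was 0.19 for the regulatory subunits and 0.16 for all genes. For 5 members several probe sets were present (Psma3, Psma5, Psmb3, Psmc1 and Psmd2), and their averaged changes had the same sign within each gene. The widest gap was for Psmb3, with 0.03 and 0.10. The probe sets of Psma3 list the same accessions and cannot be assigned to separate transcripts.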

How the data were processed

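Expression was measured on 12 Affymetrix arrays. The authors deposited an intensity on a linear scale for each of 35474 probe sets. How these were summarised, background-corrected and normalized is not given in the sources used here. Per the labels' protocols, RNA was amplified (NuGEN Ovation Pico WTA V2) and labelled (Encore Biotin module). Symbols came from the platform annotation (21780 probe sets with 1 symbol, 1605 with several, 12089 with none); all 50 members matched the RefSeq gene table by name. Psme2b, found in a probe set shared with Psme2, was left out.

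Log2(intensity + 1) was computed here. Genes with a mean above the median of all genes (log2 7.52) were tested. A model with 1 mean per group was fitted with limma 3.58.1 in R 4.3.3 (8 residual, 5.38 prior degrees of freedom), with Benjamini-Hochberg adjustment over 9967 genes per comparison and a call at an adjusted p under 0.05. The steps were tested on simulated data. The labels give 3 biological replicates per group from 3 mice; the number of arrays limits the precision.

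Members named in full were those called, the 4 highest and 4 lowest averaged changes, the catalytic subunits and those below the filter; Psma4, Psma7, Psmb1 to Psmb4 and the further members, and Irf1 and Uchl5, were named with their values in view. Members and gene lists were chosen with earlier results of these data known. The motifs TTCNNNGAA and GAAANNGAA were added after the first pair of motifs. Alternative settings covered scaling (quantile or median), the offset (16), the filter, averaging over probe sets, moderation (trend and robust), weights per array, fitting the compared groups alone, the threshold (0.1), the replicate number as a block, and leaving out each array.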

Additional observations from a re-analysis of the deposited data

Results flagged for a closer look

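Psmg4, a chaperone of the alpha ring, was flagged because its E2 arrays lay on opposite sides of the oil mean in males and females. It was the single member flagged by this rule. Every male E2 array (1047, 987 and 912) lay below the male oil mean of 1081, and every female E2 array (1168, 1122 and 1107) lay above the female oil mean of 1104. Single values of the treatments still mixed. In males the oil array at 974 lay below the E2 arrays at 1047 and 987. In females the oil arrays at 1125 and 1157 lay above the E2 arrays at 1122 and 1107. A count of all genes under the same rule is not given, so the flag cannot be weighed against them. The female response minus the male response was 0.17 on the log2 scale, and limma's test of this difference gave an adjusted p of 0.954. Groups of 3 arrays are too small for a test of single outlying samples, and none was run.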

How the results depend on the processing

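The number of proteasome genes called higher under averaged E2, 4 as reported, was 1 under median centring, 1 without a filter, 1 with a filter at the 25th percentile, 1 with the replicate block, 8 with trend and robust moderation and 10 at an adjusted p under 0.1. Leaving out each array in turn gave 0 to 7. The cause was not tested, except that a looser threshold admits more genes. None was called lower in any fit that was run. In males the count of 0 became 1 (Psmg3) under array weights and with the compared groups alone, and leaving out arrays gave 0 to 1; in females leaving out arrays gave 0 to 1. Class medians stayed within the spread between arrays under every alternative run. The averaged change of Psmb7 turned negative under quantile normalization (-0.0073) and median centring (-0.0018), and ranged from -0.0316 to 0.0518 with arrays left out. The median of all genes was 0.01 without a filter.

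Arrays with the same replicate number did not deviate together: over 18 such pairs across groups the correlation of deviations was -0.26 to 0.20 (mean -0.05), and over 36 other pairs -0.33 to 0.28 (mean 0.02). Deviations within a group sum to 0, so the 36 other pairs are not an independent comparison. As the 18 pairs of the same number had a mean of -0.05, the numbers were not taken as a pairing.

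Fits that leave out an array keep 2 in that group and pool the spread of all groups. Probe sets with several symbols were not used. Changes of the size seen here are close to the spread between arrays, and no background level was used here, which limits Psmb11 and Psma8.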
